A study of Mus musculus with 4 samples.

Results

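The regions described here are stretches of open chromatin between genes that were called as accessible in EpCAM-positive DN3 thymocytes and not in EpCAM-negative ones. They numbered 476 of 9513 intergenic regions (5.00%), and of 36224 accessible regions in all. Peaks of the 4 deposited ATAC-seq lists were merged wherever they overlapped by at least 1 bp, on chromosomes 1 to 19, X and Y. A merged region was kept when it had a peak in both EpCAM-positive lists and in neither EpCAM-negative list, and when its strongest summit lay outside every protein-coding gene of RefSeq GRCm38.p6 and over 1000 bp from every annotated gene start or end. Members were therefore chosen by the peak calls themselves. Their number, fold and summit height are a description of that choice, with no test.

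ATAC-seq maps open DNA with a transposase that inserts sequencing adapters where chromatin is accessible. The cells were DN3 cells from the thymus of WT mice, obtained by flow sorting and then split magnetically with an antibody against the adhesion molecule EpCAM. Each fraction, EpCAM-positive (antibody-bound) and EpCAM-negative (unbound), had 2 libraries, which the labels do not tie to different animals; their spread may thus be technical only. No treatment, deletion or transgene is named for either fraction, and neither is the age of the mice.

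DN3 thymocytes are CD4 and CD8 double-negative T cell precursors that rearrange the T cell receptor beta gene and are tested for a working pre-T cell receptor. Much of what sets their gene expression lies in distal elements, that is enhancers, silencers and insulators outside promoters, which are bound by factors such as RUNX1, TCF1, E proteins and ETS factors and show in ATAC-seq as short open stretches away from gene starts. Which gene such an element acts on is not given by its position, so the nearest gene is used below only as an address.

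The lists held 24585 to 29007 peaks on these chromosomes, and 21.4% and 22.8% of the EpCAM-positive peaks (replicates 1 and 2) and 21.7% and 22.7% of the EpCAM-negative peaks had an intergenic summit. The difference of the means was -0.0732 percentage points (exact permutation over the 2 and 2 libraries, two-sided p = 1; the smallest possible p is 0.333). Background signal, a relative measure of depth, was 0.388 and 0.383 fragments for EpCAM-positive libraries, 1.34 times the mean of the EpCAM-negative ones (0.290 and 0.286). Of 19 DN3 and T lineage marker genes, 14 had a region called in all 4 libraries, against 5 of 12 thymic epithelial, 2 of 9 B cell, 5 of 13 myeloid, 5 of 11 NK, 6 of 10 gamma-delta T cell and 3 of 9 erythroid marker genes. Among the other gene lists described below, the count ran from 7 of 18 progenitor genes to 15 of 15 cell cycle genes. A high count is thus not particular to DN3 markers, and the share over all genes is not given here.

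No genome sequence was used here, so the members' own sequence is not printed. None of the 454 members on chromosomes that the table of promoters covers overlapped a RefSeq promoter window (250 bases before to 50 after a gene start). The rule largely fixed this outcome, since summits lay over 1000 bp from every gene start or end and members spanned at most 786 bp. At the edge of the rule lay 74 further EpCAM-positive-only regions that were outside protein-coding genes but within 1 kb of the end of another gene, such as a long non-coding RNA (lncRNA) gene; 15 of them overlapped a promoter window, and in 5 the summit itself fell inside. The 74 would be members if protein-coding genes alone were considered, which gives 550 regions. Of the 5 with the summit inside, the 3 with the most summit fragments are shown, chosen after their values were seen, because they show the sequence at the summit of regions just outside the rule. Each is a lncRNA promoter window from RefSeq GRCm38.p6, 5′ to 3′ on the gene's strand, with the gene start after base 250 and capitals marking the bases inside the EpCAM-positive-only region.
Gm35813: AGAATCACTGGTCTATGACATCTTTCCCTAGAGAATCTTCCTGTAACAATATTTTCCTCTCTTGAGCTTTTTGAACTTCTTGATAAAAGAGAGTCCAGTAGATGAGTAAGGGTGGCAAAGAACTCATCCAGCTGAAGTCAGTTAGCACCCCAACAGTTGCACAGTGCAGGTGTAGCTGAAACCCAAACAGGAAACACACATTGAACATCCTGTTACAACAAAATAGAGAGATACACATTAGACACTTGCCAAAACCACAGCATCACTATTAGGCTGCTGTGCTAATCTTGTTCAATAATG
Gm13025: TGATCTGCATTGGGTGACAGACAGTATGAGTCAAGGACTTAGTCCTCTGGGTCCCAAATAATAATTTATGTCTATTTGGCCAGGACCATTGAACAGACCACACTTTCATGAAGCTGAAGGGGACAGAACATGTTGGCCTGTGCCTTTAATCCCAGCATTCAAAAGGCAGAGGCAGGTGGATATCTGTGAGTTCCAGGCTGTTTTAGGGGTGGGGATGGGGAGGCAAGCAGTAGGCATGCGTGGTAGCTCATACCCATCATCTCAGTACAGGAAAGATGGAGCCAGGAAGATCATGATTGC
9630013D21Rik: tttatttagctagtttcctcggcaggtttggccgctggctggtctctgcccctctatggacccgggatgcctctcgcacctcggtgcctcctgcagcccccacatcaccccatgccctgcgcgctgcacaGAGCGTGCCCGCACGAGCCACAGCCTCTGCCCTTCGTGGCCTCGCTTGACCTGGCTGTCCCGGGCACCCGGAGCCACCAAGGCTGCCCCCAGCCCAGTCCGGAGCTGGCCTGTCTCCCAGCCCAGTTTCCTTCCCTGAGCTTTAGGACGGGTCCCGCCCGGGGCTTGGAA
The Gm35813 window (chr2:79231035-79231334, plus strand) lay wholly inside a region 24103 bp from Itga4, the alpha4 integrin gene, and its summit at base 289 had 17 fragments in each EpCAM-positive library. The Gm13025 window (chr4:140679495-140679794, plus strand) lay 13693 bp from Arhgef10l, with 15 and 16 fragments at a summit at base 206. The 9630013D21Rik window (chr4:109657539-109657838, minus strand) lay 3318 bp from Cdkn2c, the p18INK4c cell cycle inhibitor gene, with 10 and 11 fragments at a summit at base 281. The windows differed in composition: GC content was 40.7% with no CG dinucleotide at Gm35813, 48.3% with 1 at Gm13025 and 67% with 18 at 9630013D21Rik, against a median of 48.3% over 11588 windows of non-coding genes.

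Both strands of these windows were searched for 17 short motifs. Gm35813 held the RUNX motif TGTGGTT (present in 5.27% of 32851 promoter windows), the E-box CAGCTG (16.3%) and the MYB motif AACTGNC (12.8%). The same window held CANCTGC (22.4%), a related E-box form, at a site apart from CAGCTG. Gm13025 held the AP-1 motif TGANTCA (7.81%), CANCTGC and CCAAT (37.4%). 9630013D21Rik held the GC box GGGCGG (35.7%) and the CTCF core GGNGGCAG (12.6%). These percentages are over windows of coding and non-coding genes together, unlike the GC median above, and were not taken for non-coding genes alone. A match is a run of letters and is not a bound site.

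Among intergenic regions called in exactly 2 libraries, those of the EpCAM-positive pair were the most frequent. There were 476 EpCAM-positive-only, 237 EpCAM-negative-only (2.49% of intergenic regions) and 146, 156, 231 and 347 regions with 1 library of each fraction (mean 220). The ratio of EpCAM-positive-only to EpCAM-negative-only was 2.01 (95% interval 1.72 to 2.36, for counting error only). The ratio stayed at 2.01 when EpCAM-positive peaks, scaled to the EpCAM-negative depth, had to reach the lowest -log10 p of the EpCAM-negative lists. This limit, 3.65, removed none of the 476 members, so the unchanged ratio does not show how depth bears on it. Under other choices of peaks the ratio was lower. With the 24585 strongest peaks of every list the counts were 318 and 308, a ratio of 1.03, and when the scaled EpCAM-positive peaks alone had to reach a -log10 p of 4.90, the first percentile of the EpCAM-negative lists and a limit chosen after seeing the data, they were 391 and 276, a ratio of 1.42. When a library was left out, its fraction needed only its remaining call, and the ratio was 0.626 without EpCAM-negative replicate 1, 0.941 without EpCAM-negative replicate 2, 2.23 without EpCAM-positive replicate 2 and, at its highest, 4.31 without EpCAM-positive replicate 1.

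**Figure D1:**
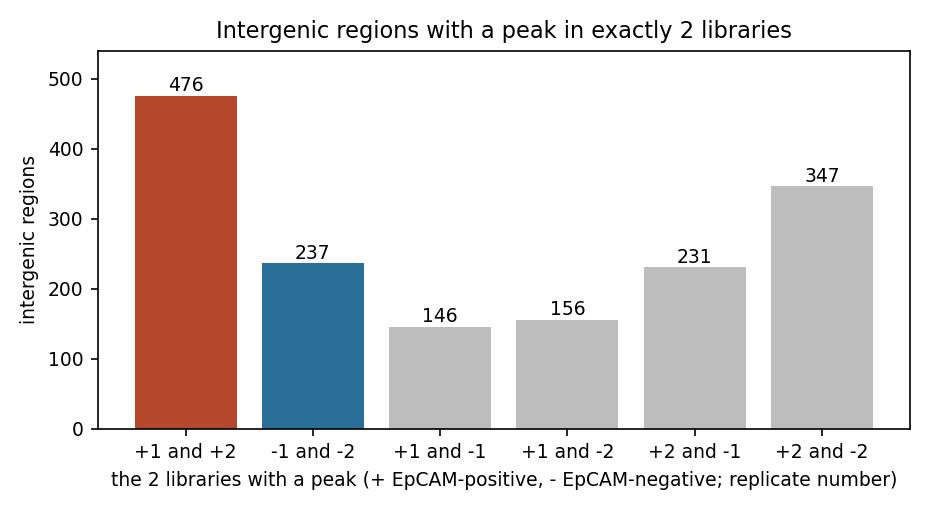
Number of intergenic regions (bars, from 0) by the 2 libraries in which they had a peak, with + for EpCAM-positive, - for EpCAM-negative and the replicate number. The 476 regions of the EpCAM-positive pair stand above the 237 of the EpCAM-negative pair and the 146 to 347 of the mixed pairs.

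Members were weak peaks. The summit height, solved from the authors' fold and -log10 p and called summit fragments here, had a median of 10 in each EpCAM-positive library (range 5 to 43 in replicate 1 and 5 to 33 in replicate 2), where intergenic regions called in all 4 libraries had medians of 20 and 22. The authors' fold over local background had medians of 5.63 and 5.79, and their -log10 q medians of 5.83 and 6.16. Low height was not particular to members. EpCAM-negative-only regions had a median of 8 summit fragments in each EpCAM-negative library, at the lower depth of those libraries. Their median folds were 5.52 and 5.70 and their median -log10 q 5.29 and 5.63. Members were also short, with a median width of 330.5 bp (240 to 786), against 580 bp for shared intergenic regions and 323 bp for EpCAM-negative-only ones. By -log10 q, 4 members stood in the upper 50% of both EpCAM-positive lists. The heights agreed between the libraries within 1.5-fold for all but 71 members (14.9%). The log2 heights had a Pearson r of 0.711 across the 476 regions, which share libraries and are not independent. The rule required a peak in both lists, which fixed part of this agreement in advance, and no other set of regions was compared.

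How often a region called in both libraries of a fraction was missing from the other fraction depended on its height. Among regions called in both EpCAM-positive libraries, 39.1% of those with a mean of up to 8 summit fragments had no EpCAM-negative peak (122 of 312). This share was 22.3% from 8 to 12 fragments (215 of 964), 12.7% from 12 to 16 (98 of 769), 3.51% from 16 to 24 (30 of 854) and 0.844% above 24 (11 of 1303). In the reverse direction, with EpCAM-negative heights put on the EpCAM-positive depth scale, the shares were 55.6% (30 of 54), 20.4% (107 of 524), 8.46% (60 of 709), 3.19% (29 of 909) and 0.715% (11 of 1539). Above 16 fragments the fractions thus had 30 and 29, then 11 and 11, group-only regions, so that the larger EpCAM-positive number lay in the classes of lower height. A region with no peak has no listed value, and the signal that the EpCAM-negative libraries had at the members is not known; the lowest intergenic summit they listed had 3 fragments, against 5 in the EpCAM-positive lists.

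**Figure D2:**
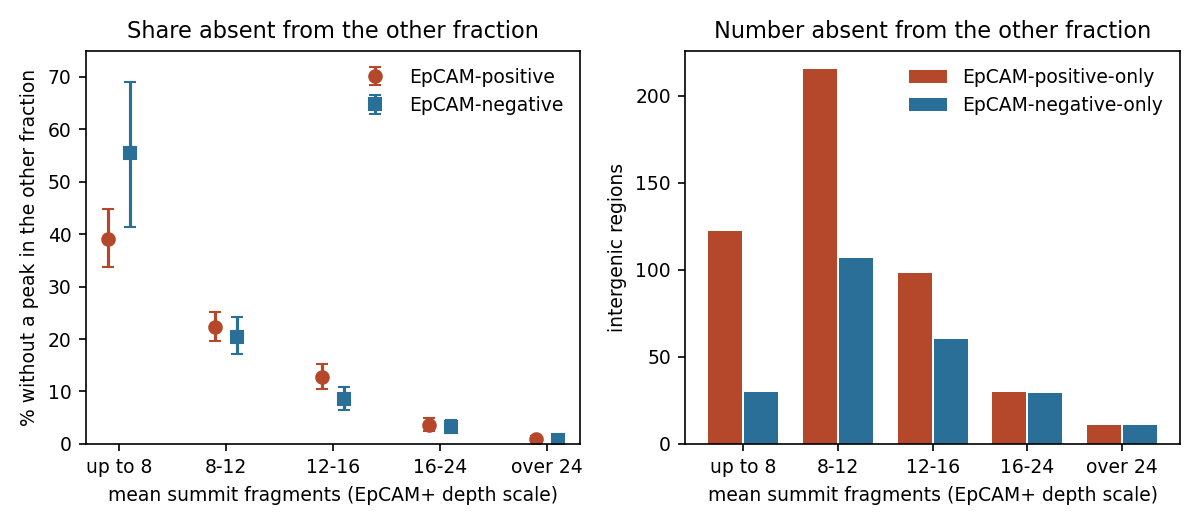
Left, the share of intergenic regions called in both libraries of a fraction that had no peak in the other fraction, by mean summit fragments on the EpCAM-positive depth scale, with exact 95% intervals (counting error only). Right, the number of those regions: 122 against 30 in the lowest class and 11 against 11 in the highest.

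Members lay closer to genes: the median distance from the summit to the nearest end of a protein-coding gene was 14192 bp, against 29159 bp for EpCAM-negative-only and 20326.5 bp for shared intergenic regions. Within 50 kb of a gene lay 374 members (78.6%, exact 95% interval 74.6 to 82.2), 63.7% of EpCAM-negative-only regions (57.2 to 69.8) and 72.1% of shared ones. Beyond 100 kb lay 44 members (9.24%) and 46 EpCAM-negative-only regions (19.4%). Measured to gene starts alone, over regions on chromosomes with known starts, the shares within 50 kb were 65.2%, 51.7% and 54.0%.

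The ratio of members to EpCAM-negative-only regions was graded along this distance. Up to 5 kb from a gene there were 98 members and 24 EpCAM-negative-only regions, a ratio of 4.08 (2.59 to 6.67). The ratio was 2.32 from 5 to 20 kb (176 and 76), 1.96 from 20 to 50 kb (100 and 51), 1.45 from 50 to 100 kb (58 and 40) and 0.957 (0.618 to 1.48) beyond 100 kb (44 and 46). As a share of all intergenic regions at that distance, members made up 6.61% up to 5 kb (5.40 to 8.00) and 2.73% beyond 100 kb (1.99 to 3.64), and these intervals for counting error did not overlap. EpCAM-negative-only regions made up 1.62% and 2.85% at the same distances.

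**Figure D3:**
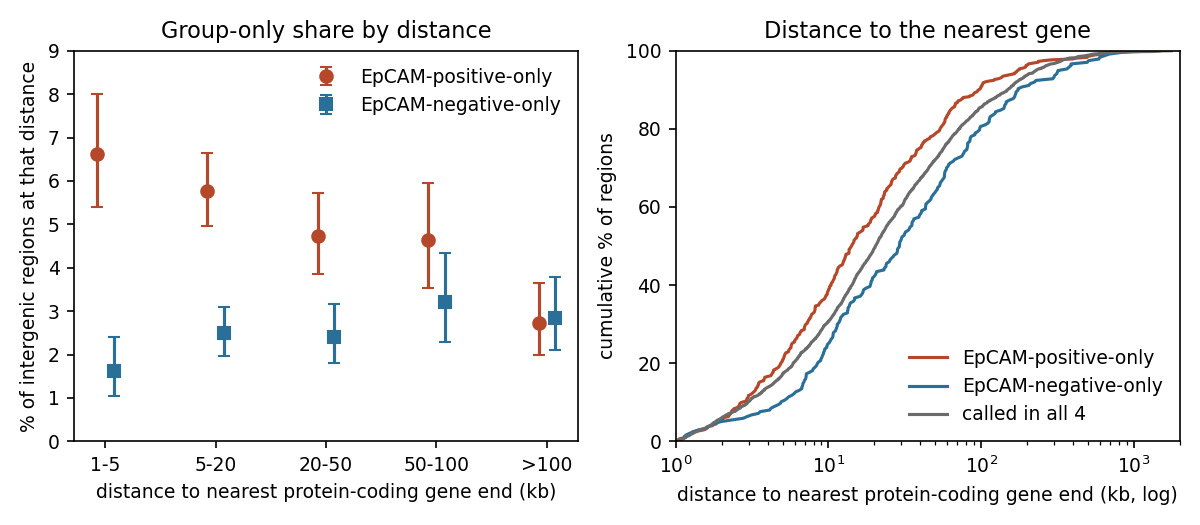
Left, EpCAM-positive-only and EpCAM-negative-only regions as a percentage of all intergenic regions at each distance from a protein-coding gene end, with exact 95% intervals: 6.61% and 1.62% at 1 to 5 kb, 2.73% and 2.85% beyond 100 kb. Right, cumulative share of regions by distance (log axis), where the EpCAM-positive-only curve runs to the left of the shared one and the EpCAM-negative-only curve mostly to its right.

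The ratio was also higher near genes under settings that lowered the overall ratio. With lists of equal length it was 1.97 up to 5 kb and 0.446 beyond 100 kb, and with the first-percentile depth scaling 3.19 and 0.536. It was 1.08 and 0.253 without EpCAM-negative replicate 1, 1.27 and 0.647 without the other EpCAM-negative library, 6.29 and 3.84 without EpCAM-positive replicate 1, and 3.06 and 1.26 without its replicate 2. In all 13 settings that gave both values, the main one included, the ratio near genes was the higher one, by 1.64 to 5.96 times. The settings re-use the same 4 lists and are not separate checks. A common -log10 q minimum, the lowest-p depth scaling and summits by -log10 q gave the main counts again (98 and 24 near, 44 and 46 far). Heights and local background moved along the same axis: from the nearest to the farthest class, the members' median summit fragments were 12 and 8 in EpCAM-positive replicate 1, and their median local background 1.14 and 0.552. EpCAM-negative-only regions had 9.5 and 7 fragments and a background of 0.773 and 0.403 in EpCAM-negative replicate 1. Their part in the gradient was not tested.

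Regions called in a single library, which the rule did not use, allow a comparison over libraries. Of such intergenic regions, 76.3% and 67.8% lay within 50 kb of a gene for EpCAM-positive replicates 1 and 2, and 66.4% and 61.7% for the EpCAM-negative ones. Their median distances were 17457 and 22179 bp against 25668.5 and 29261 bp. In the share within 50 kb, only EpCAM-positive replicate 1 lay above the 72.1% of shared intergenic regions. The values of the fractions did not overlap in either measure, but the exact intervals for counting error did overlap in the share. They were 65.2 to 70.4 for EpCAM-positive replicate 2 and 62.7 to 70.0 for EpCAM-negative replicate 1. The difference in the share was 8.01 percentage points (two-sided exact permutation p = 0.333 with 2 libraries per fraction, the smallest this design allows), so it could not pass a threshold of 0.05.

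Another member lay within 50 kb of 38 members (7.98%, 5.71 to 10.8), close to the 6.75% (3.91 to 10.7) of EpCAM-negative-only regions with another of their kind, where shared regions, which are more numerous, had 45.1%. A region shared by all 4 libraries lay within 50 kb of 75.4% of members (71.3 to 79.2) and 56.5% of EpCAM-negative-only regions (50.0 to 62.9). For shared intergenic regions themselves it was 76.3%. These neighbours were of any position, gene ends and gene bodies included. The part of the distance to genes in these shares was not tested. EpCAM-positive-only regions inside genes or at gene ends lay within 50 kb of 55 members (11.6%), of 7.17% of EpCAM-negative-only regions and of 8.80% of shared regions. EpCAM-negative-only regions inside genes or at gene ends lay near 12 members (2.52%), 2.11% of EpCAM-negative-only and 2.92% of shared regions, so they were the fewer beside all 3 sets. A peak of an EpCAM-negative list lay within 500 bp of 57 members (12.0%); leaving these out left 419. The summit lay inside a non-coding gene for 100 members (21.0%), 94 of them lncRNA genes, against 17.3% of EpCAM-negative-only and 18.7% of shared regions.

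The 15 members with the best ranks by -log10 q in their weaker EpCAM-positive library lay near genes of varied function. The first was 9942 bp from Mfsd11, a gene of the major facilitator transporter family, with 23 summit fragments in each EpCAM-positive library; an EpCAM-negative peak lay 92 bp away. The third, at chr7:63858650-63858990, was 27505 bp from Klf13, a Krüppel-like zinc finger factor, with 18 fragments in each library. Members near Zfp217, a zinc finger repressor, had 23 and 28 fragments (67683 bp away), and near Skil, the SMAD-binding repressor SnoN, 20 and 17.

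Others lay near Nxf7 (an RNA export factor family gene), Erv3 (an endogenous retroviral gene), Timm8a2 (mitochondrial import), Iqschfp, Bclaf3, Adamts1 (a secreted metalloprotease), Gm28802, Cyb561 (a cytochrome b561), Fndc1 and Prr5 (a subunit of the mTORC2 kinase complex). Their heights ran from 11 fragments near Bclaf3 in replicate 1 to 27 near Erv3 in replicate 2. Of the 15, 12 were kept when an EpCAM-negative peak within 500 bp disqualified a region: Mfsd11, Erv3 and Gm28802 lost theirs.

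**Figure D4:**
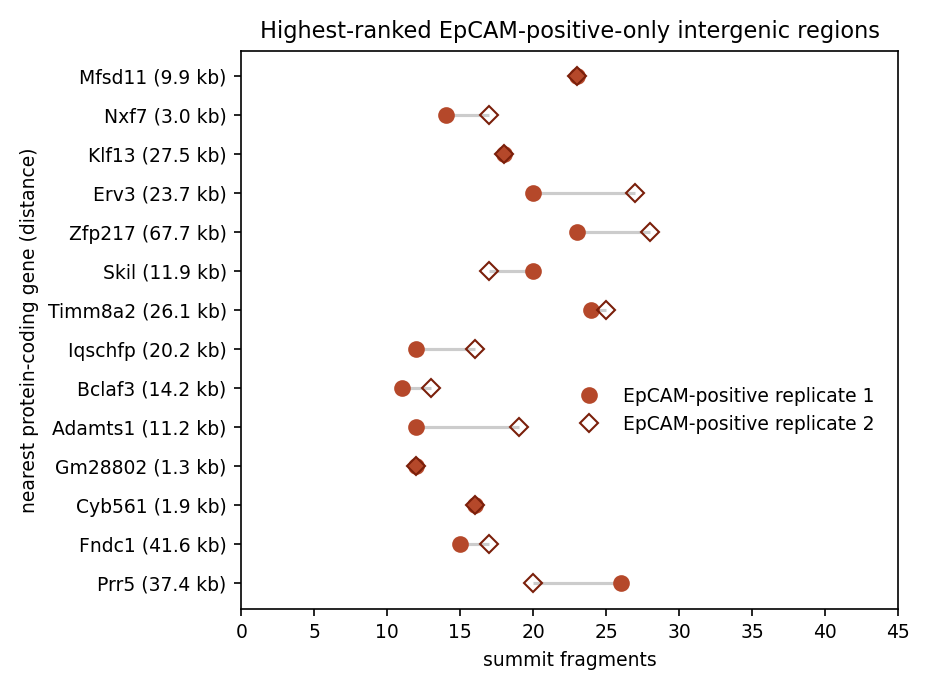
Summit fragments in EpCAM-positive replicate 1 (filled circles) and replicate 2 (open diamonds) of 14 of the 15 members with the best ranks, labelled by nearest protein-coding gene and distance. Heights run from 11 (Bclaf3) to 28 (Zfp217), and the largest gap between replicates is 7 fragments (Erv3, 20 and 27; Adamts1, 12 and 19).

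Of the 476, 432 lay within 100 kb of a protein-coding gene (5.47% of the 7900 intergenic regions within that distance) and were assigned to 416 genes, 15 of which had more than 1. Of these 416 genes, 134 (32.2%) also had an intergenic region shared by all 4 libraries and 19 an EpCAM-negative-only one. The shares over all genes are not given here, so neither count can be read as high or low. Foxp4, a forkhead factor, had the most, with 3: a pair 309 bp apart, 2659 and 2350 bp from the gene, and a further one 45894 bp away, with 8 to 11 fragments each. The group with the most members in 50 kb was of 3 in 47193 bp on chromosome 2, 2 of them assigned to Zfp217 and the other to Bcas1, with 11 to 28 fragments. A pair near Papolg, a poly(A) polymerase gene, lay 336 bp apart. Gm52481 on the Y chromosome, 1600014C23Rik and Fam169b had 2 each. Farthest from any protein-coding gene were members 1487729 bp from Iftap, 1045879 bp from Hace1 and 758663 bp from Cetn3, with 5 to 8 fragments.

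Over the 20 gene lists, of T cell development, signalling and markers of DN3 and other cell types, members were no more frequent than among intergenic regions at large: 16 of the 377 intergenic regions assigned to any listed gene were members (4.24%, against 5.47% of all within 100 kb of a gene), and 12 were EpCAM-negative-only. Among T lineage transcription factors it was 1 of 76 (Erg), with 3 EpCAM-negative-only regions at Id3, Ikzf1 and Ikzf2. Among pre-TCR and TCR signalling genes it was 1 of 42 (Fyn), with 3 EpCAM-negative-only regions at Cd69, Fyn and Lcp2. The Notch pathway had 0 of 19 (Maml2 had an EpCAM-negative-only region) and the Wnt pathway 0 of 15. Cell cycle genes had 0 of 14, apoptosis genes 0 of 13 and the NF-kappaB pathway 0 of 13. These lists hold 11 to 19 genes each and do not cover a whole pathway, so a 0 is for the listed genes only. Members whose nearest protein-coding gene was Wnt11, Wnt8b, Nfkbid or Psen2 did not count for these lists. All list counts are small, the lists were made with results of these data known, and no list was tested.

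The lists with the most members were those of progenitor genes and of adhesion, with 4 each. Of 22 regions at progenitor legacy genes, which multipotent cells use and T cell precursors shut down, 4 were members (18.2%). Another 2 were EpCAM-negative-only (Cd44 and Gfi1b). Over all intergenic regions within 100 kb of a gene, members made up 5.47%. This list was singled out after seeing the data, its Erg and Cd44 regions count in other lists too, and the difference was not tested. The member near Erg, an ETS factor of blood stem cells, lay 53453 bp away with 9 and 11 fragments in EpCAM-positive replicates 1 and 2. That near Lmo2, an adaptor of progenitor transcription complexes, lay 1038 bp away with 8 and 9 fragments, just beyond the 1000 bp limit. Near Mef2c, a MADS-box factor, it was 58265 bp away with 12 and 13, inside the lncRNA gene C130071C03Rik. Near Cd44, the hyaluronan receptor of early thymic progenitors, it was 42466 bp away with 9 and 9. All 4 had 8 to 13 fragments, around the members' median of 10, with the nearest EpCAM-negative peak 3980 to 12031 bp away. With lists of equal length 2 regions counted for this list, and over 5000 bp from gene ends 1 did.

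Of 36 regions at adhesion and migration genes, 4 were members (11.1%, against 5.47% of all within 100 kb of a gene, not tested). Another 2 were EpCAM-negative-only (Ccr9 and Cd44). Besides the one near Cd44, the members were near Cd82 and Tspan32, both tetraspanins, and S1pr1, the receptor for thymic egress. The Cd82 region had 14 and 16 fragments at 3810 bp and the Tspan32 region 12 and 10 at 9812 bp. The S1pr1 region had 10 and 12 at 67548 bp, 20 bp from an EpCAM-negative peak. It was lost with the first-percentile depth scaling. With lists of equal length, those near Cd44, Cd82 and S1pr1 were lost and that near Tspan32 was kept.

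The other lists had 1 or 2 members. Il21r, a cytokine receptor gene of mature T cells, had the highest of them, with 35 and 33 fragments at 2007 bp, on a high local background of 8.42 and 8.50 and 77 bp from an EpCAM-negative peak. Dntt, which codes for the terminal transferase that adds bases at V(D)J junctions, had 24 and 25 fragments at 2205 bp, with the nearest EpCAM-negative peak at 3753 bp. It was the member at DN3 marker genes (1 of 38 regions) and at V(D)J recombination genes (1 of 8). Jak1, the kinase of common gamma chain cytokine receptors, had a pair 419 bp apart at 27993 bp (14 and 14 fragments) and 27574 bp (11 and 9), inside the lncRNA gene Gm12796. Both lay within 689 bp of an EpCAM-negative peak.

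Dnajb1, a heat-shock co-chaperone gene, had 12 and 14 fragments at 9642 bp, and Ier3, an immediate early gene, 8 and 9 at 57753 bp. Foxo1, which sustains Il7r expression, had 6 and 6 at 94046 bp, and Fyn, a Src family kinase, 8 and 7 at 89080 bp. Among markers of other cell types, Igll1, the lambda5 chain of the surrogate light chain, had the only member, 1 of 4 regions at B cell genes, with 15 and 17 fragments at 1587 bp and 163 bp from an EpCAM-negative peak. Regions at thymic epithelial (0 of 7), myeloid (0 of 12), NK (0 of 16) and gamma-delta T cell genes (0 of 11) held none, and no intergenic region was assigned to the erythroid list.

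**Figure D5:**
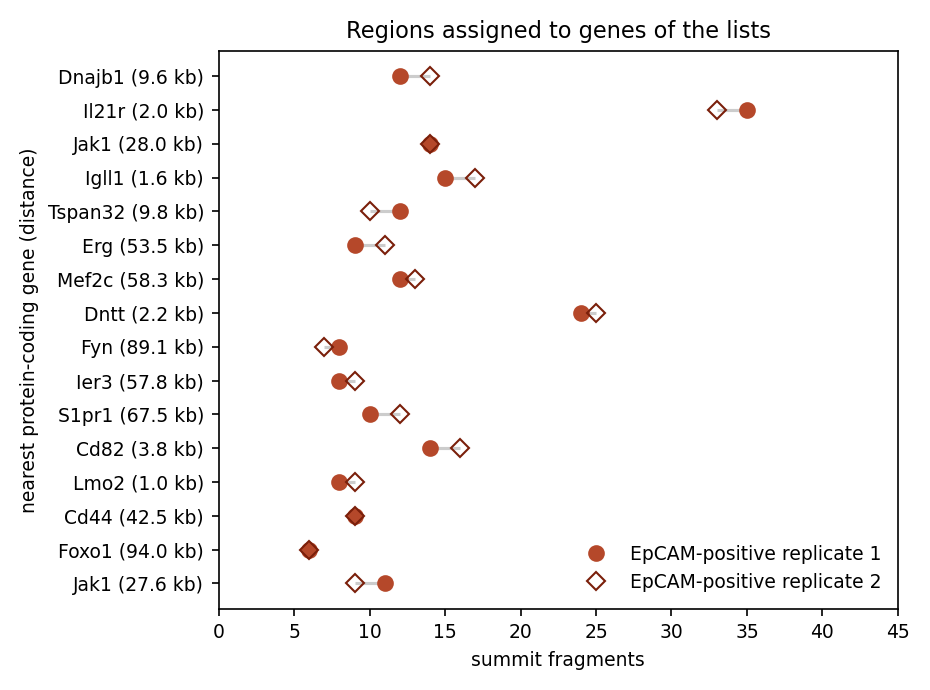
Summit fragments in EpCAM-positive replicate 1 (filled circles) and replicate 2 (open diamonds) of the 16 members assigned to a gene of the lists, in order of rank from top to bottom. Il21r (35 and 33) and Dntt (24 and 25) stand above the others, which lie between 6 and 17.

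No member lay within 100 kb of Epcam itself. An EpCAM-positive-only region was found 64330 bp from it, at chr17:87571441-87571790 with 10 fragments in each EpCAM-positive library, but its summit was 892 bp from an end of the lncRNA gene Gm46587, and it was therefore not a member.

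The limits of the rule passed through dense parts of the data. The members nearest to the calling limit were those near Slc35c2 (6 and 5 fragments, -log10 q 3.30 and 2.26), Selenof (7 and 5) and Tmem170b (5 and 7). Just outside lay 2003 intergenic regions called in a single EpCAM-positive library, with a median of 8 fragments, and 716 called in both EpCAM-positive libraries and 1 EpCAM-negative library, with a median of 11.5 in the former and 9 in the latter. In distance, 19 members had a summit no more than 1200 bp from a gene end. Over the genome, the 476 were part of 1594 EpCAM-positive-only regions of any position (4.40% of all regions), of which 378 lay within 1 kb of a protein-coding gene end and 666 further inside such a gene.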

How the data were processed

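The deposited data were 1 narrow peak list per ATAC-seq library, made by the authors on mm10 (GRCm38). Per the submitters' processing notes, reads were handled with Bowtie2, SAMtools, Picard, MACS3, bedtools and deepTools, and with FastQC, Trimmomatic and Trim Galore; for versions, duplicates, read shift and caller settings, nothing is stated there. Each deposited peak carries a display score (not used in any result), a fold over local background (a ratio), and the −log10 of its p and q, all from the authors' caller. Read totals were not used here. Summit fragments and the background around them were computed from each peak's deposited −log10 p and fold, with a Poisson tail and 1 added to both terms of the fold (tolerance 0.01); this worked for over 99.9% of peaks per list and was tested on simulated data. The lowest background served as relative depth.

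Of a region's peaks, the summit came from the one with the highest fold. Gene ends are those of 49939 RefSeq GRCm38.p6 genes, 21883 of them protein-coding; the table has no strand, exons or introns, and gene starts came from the promoter windows, which do not cover chromosome 18. A member belongs to the nearest protein-coding gene within 100 kb. Named are the 15 members best ranked in their weaker library, all members at genes of 20 lists, the 5 genes with most members, the 3 densest groups (most members in 50 kb, then shortest span), the 3 farthest members, the 3 nearest the calling limit and any within 100 kb of Epcam; 1 of the 15 is not reported here. Members and lists were chosen with earlier results of these data known. Intervals are exact (Clopper-Pearson, 95%) and cover counting error only, since regions are not replicates. Values per library were compared by exact permutation, and the replicate numbers were taken as names only, because the labels tie them to no shared mouse or day. Python 3.11.15, numpy 2.4.6, pandas 2.3.3, scipy 1.17.1 and matplotlib 3.10.9 were used.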

Additional observations from a re-analysis of the deposited data

How the results depend on the processing

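With the highest of the lists' −log10 q minima applied to all, or EpCAM-positive peaks scaled to the EpCAM-negative depth and held to the lowest EpCAM-negative −log10 p, all 476 members were kept. Held to the first percentile instead (−log10 p 4.90, chosen after seeing the data), 391 were kept, the ratio to EpCAM-negative-only regions was 1.42, beyond 100 kb 0.536, the median fold 5.83 (from 5.71) and 25 members had another within 50 kb (from 38). With lists of equal length there were 318 members, 299 of them among the 476. The ratio was then 1.03, within 5 kb 1.97 and beyond 100 kb 0.446, the median fold 6.09, and 19 had another within 50 kb. Over 5000 bp from gene ends there were 277, with a ratio of 1.55, 70.4% within 50 kb of a gene, 13 with another within 50 kb and 6 at listed genes. Distance to gene starts gave 65.2% within 50 kb, a window of 10 kb 18 members with another, and assignment to any gene within 100 kb 31 at listed genes (from 16). For the counts at listed genes under these settings, the share over all intergenic regions was not taken. Peaks merged only on overlapping by 50% of the shorter gave 480 members and summits by −log10 q 477.

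Leaving out each library in turn gave 803 to 1841 members, ratios of 0.626 to 4.31 (within 5 kb 1.08 to 6.29, beyond 100 kb 0.253 to 3.84), 70.9% to 78.6% within 50 kb, median folds of 5.36 to 5.88, 124 to 492 with another within 50 kb, 30 to 53 at listed genes, and a difference in the intergenic share of peaks of -0.816 to 0.670 percentage points. A fraction with 1 library left needs 1 call, which enlarges its own group-only set or thins what the other must be absent from. Here too the counts at listed genes have no share over all intergenic regions beside them. The ratios near and far from genes and the progenitor count were singled out after seeing the data. With same-numbered libraries taken as pairs (replicate block), the difference in the intergenic share was -0.0732 percentage points with an exact p of 1; deviations of same-numbered libraries had r = 0.0965 over 3010 shared regions. Motif shares in members were not run. Members had a median of 10 summit fragments, and a peak missing from a list has no value there.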

Other observations

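By chromosome, members made up from 2.43% of intergenic regions on chromosome 4 (13 of 534) to 7.84% on chromosome 19 (20 of 255). The exact 95% intervals, 1.30 to 4.13 and 4.86 to 11.9, did not overlap, but these are the lowest and highest of the chromosomes apart from Y and no test was made. The X chromosome had 11 of 315 (3.49%) and the Y chromosome 2 of 17, both near Gm52481 and 12140 bp apart, with 23 and 26 summit fragments in EpCAM-positive replicates 1 and 2 at one and 10 and 11 at the other.

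Of members, 3 had a fold above 8 in both EpCAM-positive libraries and 13 had over 20 summit fragments in both, while 199 had 10 or fewer in both.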
